A study of Mus musculus with 12 samples.

Results

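The calcium release and reuptake genes of the mouse heart were examined as a set of 10 genes, Ryr2, Trdn, Asph, Casq2, Hrc, Atp2a2, Pln, Slc8a1, Camk2d and Calm3, taken by symbol from the 24061 gene symbols counted in each of 12 heart RNA-seq libraries. Of these libraries, 6 came from HKII+/- mice, which carry 1 working copy of the gene for hexokinase II (Hk2), and 6 came from HKII+/+ mice, the wild type. All were male C57BL/6J mice between 2 and 4 months old on a chow diet, and no treatment is given in the labels. The series title concerns the detachment of hexokinase II from mitochondria and the oxygen use of the heart, and the libraries compare hearts with a lowered gene dose of the enzyme with wild-type hearts. The mutation behind the HKII+/- genotype, the region of heart taken and any litter shared between genotypes were not stated in the labels. In each genotype the submitters marked 1 library as a potential outlier, replicate 11 of HKII+/- and replicate 13 of HKII+/+. Values are therefore given with all 12 libraries and with the 10 unmarked ones, 5 of each genotype.

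In each heartbeat a little calcium enters the cardiomyocyte through L-type channels and opens the ryanodine receptor, which lets a larger store of calcium out of the sarcoplasmic reticulum onto the myofilaments. Relaxation follows as the SERCA pump returns calcium to the store, under the brake of phospholamban, and as the sodium-calcium exchanger moves the rest out of the cell. Both the pump and the myosin motors run on ATP, and phosphorylation of phospholamban and of the ryanodine receptor by protein kinase A and CaMKII sets how fast the cycle turns.

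Deposited counts summed to between 17263209 and 51556592 per library, and 14107 symbols passed the filter on low counts with 12 libraries, among them all 10 genes of the set. Hk2 measured 255.7 to 354 CPM (the reads of a gene scaled to a common library size with TMM factors) in the unmarked HKII+/- libraries and 471 to 542.5 CPM in the unmarked HKII+/+ libraries. In the library labelled HKII+/- replicate 11 it measured 568 CPM, above every unmarked library of either genotype and against its label, and in HKII+/+ replicate 13 it measured 653 CPM. The TMM factors of these marked libraries were 0.787 and 0.760, against 0.992 to 1.09 in the unmarked ones. The 10 sarcomere marker genes of cardiomyocytes were above 0 in every library. They summed to 225300 CPM in the library labelled HKII+/- replicate 11, to 253400 CPM in HKII+/+ replicate 13 and to between 78980 and 107300 CPM in the unmarked libraries. In the library labelled HKII+/- replicate 11, atrial (17930 CPM), fibroblast (12640 CPM), smooth muscle (3413 CPM), adipocyte (1365 CPM), endothelial (1953 CPM), leukocyte (259.6 CPM), mesothelial (185.7 CPM) and airway epithelium markers (281.5 CPM) were also above every unmarked library, where they reached 7453, 1708, 1024, 294, 1702, 140.4, 108.4 and 1.84 CPM. Ventricular cardiomyocyte markers (9972 CPM) and skeletal muscle markers (316.9 CPM) were below every unmarked library there, where the lowest sums were 16090 and 929.3 CPM. In HKII+/+ replicate 13, fibroblast (3952 CPM), smooth muscle (1266 CPM), endothelial (1827 CPM) and leukocyte markers (183.8 CPM) were above every unmarked library, skeletal muscle (760.2 CPM) and adipocyte markers (24.7 CPM, against at least 28.4 CPM) were below, and ventricular (19340 CPM), atrial (6053 CPM), mesothelial (57.0 CPM) and airway epithelium markers (1.05 CPM) lay inside the unmarked range. These are whole-tissue libraries, in which fewer cells of a type and less RNA per cell cannot be told apart.

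No gene of the set passed the test between the genotypes, with or without the marked libraries. In edgeR's quasi-likelihood test, 0 of the 10 genes had an adjusted p below 0.05 with 12 libraries, where 0% of all genes tested did, and 0 of 10 did with the 10 unmarked libraries, where the share of all genes was 0.00707%. Hk2 was the 1 gene called with 10 libraries, at a log2 fold change of -0.80 (edgeR adjusted p = 0.0165). The call was lost when 1 further library was left out, for HKII+/- replicates 12, 16, 19 and 20 and HKII+/+ replicates 15, 17 and 18. With 12 libraries Hk2 had a log2 fold change of -0.66 and was not called, so that fit missed even the gene named in the genotype. At an unadjusted p below 0.05 the counts of the set were again 0 of 10 in both edgeR fits, against 0.262% and 2.8% of all genes. DESeq2 and limma voom with sample quality weights also called 0 of the 10 and had 0 of them at an unadjusted p below 0.05. Of all genes, DESeq2 had 64 of 14107 below it with 12 libraries and 351 of 14139 with 10. With voom, run on 12 libraries, 671 of 14107 were below it. Every adjusted p of the set was 1 with 12 libraries and 0.9999 with 10 (edgeR). The values of HKII+/- and HKII+/+ libraries overlapped for all 10 genes in both fits, and groups without overlap made up 0.0213% of genes tested with 12 libraries and 0.467% with 10. With 12 libraries all 10 fold changes lay below 0, as did 50.5% of all genes. Their median was -0.06 on the log2 scale (all genes -0.001) and their median standard error was 0.2. With the 10 unmarked libraries 7 of 10 lay below 0, as did 52.7% of all genes, with a median of -0.01 (all genes -0.005) and a median standard error of 0.0697. The 10 genes were counted in the same 12 libraries, so their directions are not independent of each other.

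**Figure D1:**
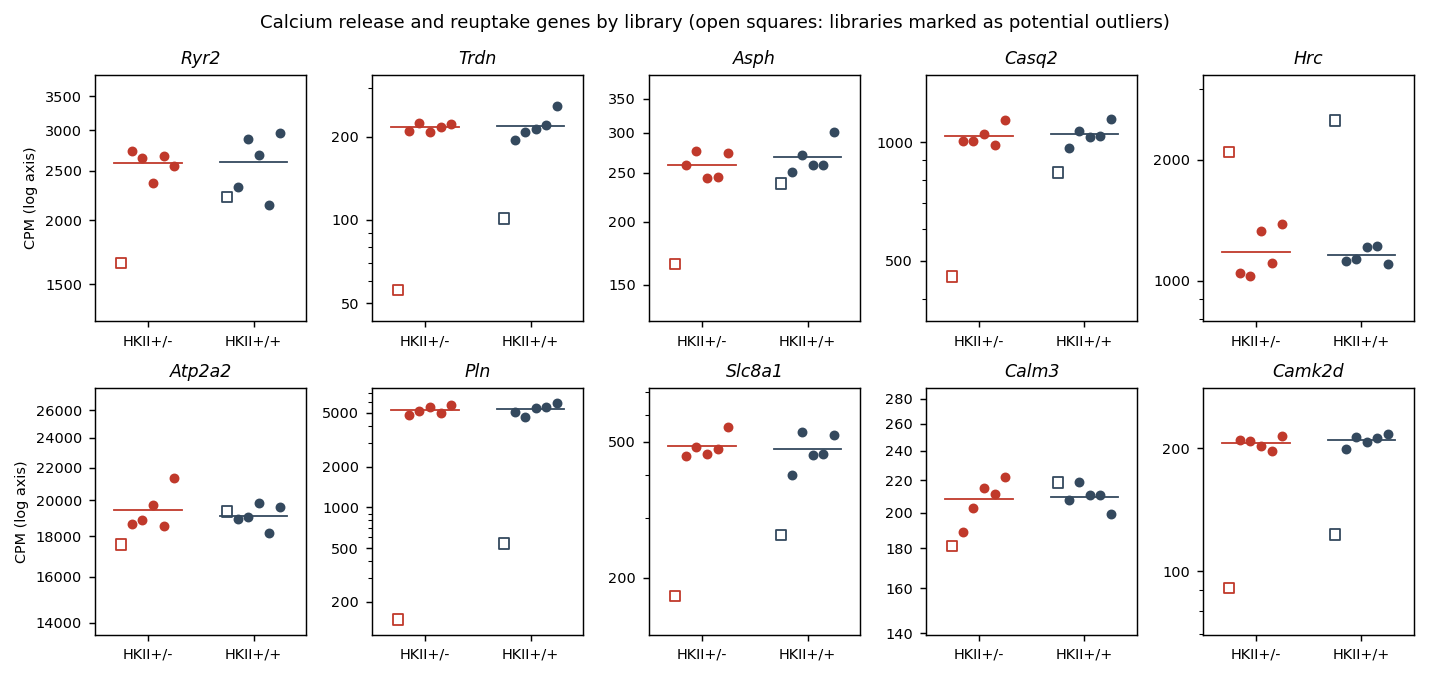
Expression of each of the 10 genes by library, in CPM on a log axis. Filled circles are the 5 unmarked libraries of each genotype, lines are their means and open squares are the libraries marked as potential outliers. The filled circles of HKII+/- and HKII+/+ hearts overlap in every panel, and the open squares of Pln, Trdn, Slc8a1, Camk2d, Casq2 and Asph lie below all filled circles of both genotypes, while those of Hrc lie above them.

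Ryr2, Trdn, Asph and Casq2 form the release unit. Ryr2 encodes the ryanodine receptor, the release channel itself (chromosome 13, 11553102 to 12106945, minus strand of GRCm38, protein coding like the other 9 genes). It measured 2738 (replicate 12), 2651 (16), 2363 (19), 2669.5 (20) and 2549.7 (22) CPM in the unmarked HKII+/- libraries, against 2327 (14), 2881 (15), 2679 (17), 2144 (18) and 2966 (21) CPM in the unmarked HKII+/+ libraries. All 5 HKII+/- values lay inside the HKII+/+ range. The mean was 2594 ± 146 CPM in HKII+/- hearts, against 2599.6 ± 354 CPM in HKII+/+ hearts (n = 5 each, ± SD), and HKII+/- hearts held 99.9% of the HKII+/+ level in the fit, with a 95% interval of 86.7% to 115%. With all 12 libraries the log2 fold change was -0.06 (95% interval -0.38 to 0.26).

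Trdn encodes triadin, which ties calsequestrin to the ryanodine receptor (chromosome 10, 33080554 to 33476709, plus strand). It measured 209, 225, 208, 217 and 223 CPM in HKII+/- replicates 12, 16, 19, 20 and 22, against 194, 208, 213, 220.3 and 258 CPM in HKII+/+ replicates 14, 15, 17, 18 and 21. The HKII+/- values again lay within the HKII+/+ range. The log2 fold change was -0.01 with 10 libraries (95% interval -0.17 to 0.14) and -0.07 with 12 (-0.74 to 0.60).

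Asph encodes junctin and junctate of the sarcoplasmic reticulum and, from other exons of the same gene, the enzyme aspartyl beta-hydroxylase, which counts per gene do not separate (chromosome 4, 9448069 to 9669344, minus strand). It ranged from 244 to 275 CPM around a median of 259 CPM in the 5 unmarked HKII+/- libraries, and from 251 to 301 CPM around a median of 259 CPM in the 5 unmarked HKII+/+ libraries. Of the 10 genes its fold change was the lowest in both fits, at -0.05 with 10 libraries (95% interval -0.19 to 0.09) and -0.11 with 12 (-0.39 to 0.17). Of its annotated exon bases, 14.7% overlap exons of Clvs1 and Gm25677 on the opposite strand, and the strand setting of the counting is not given in the sources used here.

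Casq2 and Hrc encode calcium-binding proteins of the lumen of the store. Casq2, cardiac calsequestrin, holds the calcium to be released (chromosome 3, 102086415 to 102146514, plus strand). It ranged from 985 to 1139 CPM in unmarked HKII+/- libraries, with a median of 1009 CPM, and from 968 to 1145 CPM in unmarked HKII+/+ libraries, with a median of 1036 CPM. These ranges nearly coincided, and the log2 fold change was -0.02 (95% interval -0.15 to 0.12). With 12 libraries the value was -0.11 (-0.53 to 0.31).

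Hrc encodes the histidine-rich calcium-binding protein, which binds both triadin and the SERCA pump (chromosome 7, 45335290 to 45338974, plus strand). It measured 1046 (replicate 12), 1028 (16), 1328 (19), 1106 (20) and 1386 (22) CPM in the unmarked HKII+/- libraries, against 1118 (14), 1129 (15), 1215 (17), 1221 (18) and 1097 (21) CPM in the unmarked HKII+/+ libraries. HKII+/- replicates 22 and 19 were the highest of the 10, and replicates 16 and 12 of the same genotype the lowest. The SD was 166 CPM in HKII+/- hearts, against 57.9 CPM in HKII+/+ hearts (n = 5 each). The genotypes overlapped, at a log2 fold change of 0.03 (95% interval -0.17 to 0.22). HKII+/- replicates 19 and 22 also had the lowest sums over the 10 atrial marker genes, at 507.9 and 605.9 CPM, against 2673 to 7453 CPM in the other unmarked libraries. With the mean atrial marker level as a covariate in edgeR, the fold change of Hrc in these 10 libraries was a log2 value of -0.06 (SE 0.05, adjusted p = 0.931). With all 12 libraries and no covariate it was -0.05 (-0.60 to 0.49).

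Atp2a2 and Pln set the reuptake of calcium. Atp2a2 encodes SERCA2, the pump of the sarcoplasmic reticulum (chromosome 5, 122453513 to 122502225, minus strand). It measured 18665 (replicate 12), 18899.6 (16), 19750.1 (19), 18541 (20) and 21339 (22) CPM in the unmarked HKII+/- libraries, against 18955 (14), 19033.5 (15), 19815 (17), 18206 (18) and 19627.5 (21) CPM in the unmarked HKII+/+ libraries. Replicate 22 of HKII+/- hearts was the highest and the other 4 HKII+/- libraries lay inside the HKII+/+ range. The mean was 19439 ± 1162 CPM in HKII+/- hearts, against 19127.5 ± 634 CPM in HKII+/+ hearts (n = 5 each, ± SD), and the fitted HKII+/- level was 102% of that in HKII+/+ hearts, with a 95% interval of 91.9% to 113%. With 12 libraries the log2 fold change was -0.003 (95% interval -0.24 to 0.23), a value whose sign differed between scalings.

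Pln encodes phospholamban, a membrane peptide of 52 residues that slows SERCA2 until it is phosphorylated (chromosome 10, 53337667 to 53345987, plus strand). Its coding sequence is shown because Pln carried the largest difference of the set between libraries, and because the counterpart that moved the other way in the same libraries, Hrc, differs from it in base composition. In the Pln sequence the capitals mark codons 16 and 17, for the serine that protein kinase A phosphorylates and the threonine that CaMKII phosphorylates. The Hrc line gives the opening 150 bases of its coding sequence, without capitals.
Pln: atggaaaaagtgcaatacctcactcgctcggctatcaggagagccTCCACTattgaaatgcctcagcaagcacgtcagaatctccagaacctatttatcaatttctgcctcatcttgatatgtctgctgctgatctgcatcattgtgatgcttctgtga
Hrc: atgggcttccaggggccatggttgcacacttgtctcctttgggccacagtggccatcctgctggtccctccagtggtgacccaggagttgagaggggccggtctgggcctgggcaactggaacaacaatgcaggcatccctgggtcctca
Both were read 5′ to 3′ from the GENCODE vM21 transcripts of GRCm38. G and C make up 44.7% of the 159 coding bases of Pln and 62% of the 150 bases of Hrc. Over the whole Hrc coding sequence of 2217 bases the share is 53.4%, so the opening stretch overstates the difference from Pln.

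Pln measured 4839 (replicate 12), 5169 (16), 5495 (19), 5016 (20) and 5721 (22) CPM in the unmarked HKII+/- libraries, against 5017 (14), 4627 (15), 5449.7 (17), 5499.8 (18) and 5869 (21) CPM in the unmarked HKII+/+ libraries. The HKII+/- values all lay within the HKII+/+ range. The mean was 5248 ± 358 CPM in HKII+/- hearts, against 5292.5 ± 479 CPM in HKII+/+ hearts (n = 5 each, ± SD). On the log2 scale the difference was -0.01 (95% interval -0.18 to 0.16). With all 12 libraries it was -0.03 and the interval widened to -1.47 to 1.41, the widest of the set. The marked libraries of both genotype labels lay far below the others. On the annotation, 64.7% of the exon bases of Pln overlap exons of Cep85l and Gm47644 on the opposite strand. Cep85l itself had between 3.28 and 12.7 CPM in the 12 libraries, against at least 149 CPM for Pln. These values come from the same counting, whose strand setting is not given, so they cannot show whether Pln reads were lost to the overlap.

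Slc8a1 encodes the sodium-calcium exchanger NCX1, the main route of calcium out of the cardiomyocyte (chromosome 17, 81373105 to 81738377, minus strand). It measured 456, 482, 461, 477 and 554 CPM in HKII+/- replicates 12, 16, 19, 20 and 22, against 399, 533, 457, 462 and 523 CPM in HKII+/+ replicates 14, 15, 17, 18 and 21. The highest of the 10 was an HKII+/- library and the lowest an HKII+/+ library, with the rest interleaved. The log2 fold change was 0.03 with 10 libraries (95% interval -0.15 to 0.22) and -0.02 with 12 (-0.56 to 0.52).

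Camk2d and Calm3 belong to the calcium-sensing arm. Camk2d encodes the delta chain of CaMKII, the main form of this kinase in the heart (chromosome 3, 126596302 to 126846326, plus strand). It was the steadiest gene of the set among unmarked libraries, at 206 ± 6.80 CPM in HKII+/- hearts, against 209 ± 6.50 CPM in HKII+/+ hearts (n = 5 each, ± SD). Its coefficient of variation was 3.30% in HKII+/- hearts and 3.10% in HKII+/+ hearts. Its log2 fold change was -0.02 with 10 libraries (95% interval -0.12 to 0.08) and -0.06 with 12 (-0.52 to 0.39).

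Calm3 is 1 of several genes that encode the same calmodulin protein (chromosome 7, 16915379 to 16924114, minus strand). It ranged from 189 to 222 CPM in unmarked HKII+/- libraries and from 199 to 219 CPM in unmarked HKII+/+ libraries. It averaged 208 ± 12.8 CPM in HKII+/- hearts, against 209 ± 7.06 CPM in HKII+/+ hearts (n = 5 each, ± SD). The fitted log2 fold change was -0.01 with 10 libraries (95% interval -0.12 to 0.10) and -0.05 with 12 (-0.24 to 0.14). The opening 60 coding bases of Calm3 and of Calm2, which encodes the same protein, are shown, with capitals where they differ. Within the coding sequence, reads can be given to 1 gene only through such bases.
Calm3: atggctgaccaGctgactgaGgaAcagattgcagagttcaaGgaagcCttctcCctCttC
Calm2: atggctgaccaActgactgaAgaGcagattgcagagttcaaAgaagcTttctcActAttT
Over the whole coding sequence of 450 bases, from the same transcripts, Calm3 shared 82.7% of its bases with Calm2. The longest identical run was 17 bases, well under the read length of 100 bases. The principal transcripts are 2290 bases long for Calm3 and 1205 for Calm2, so most of each lies outside the coding sequence.

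**Figure D2:**
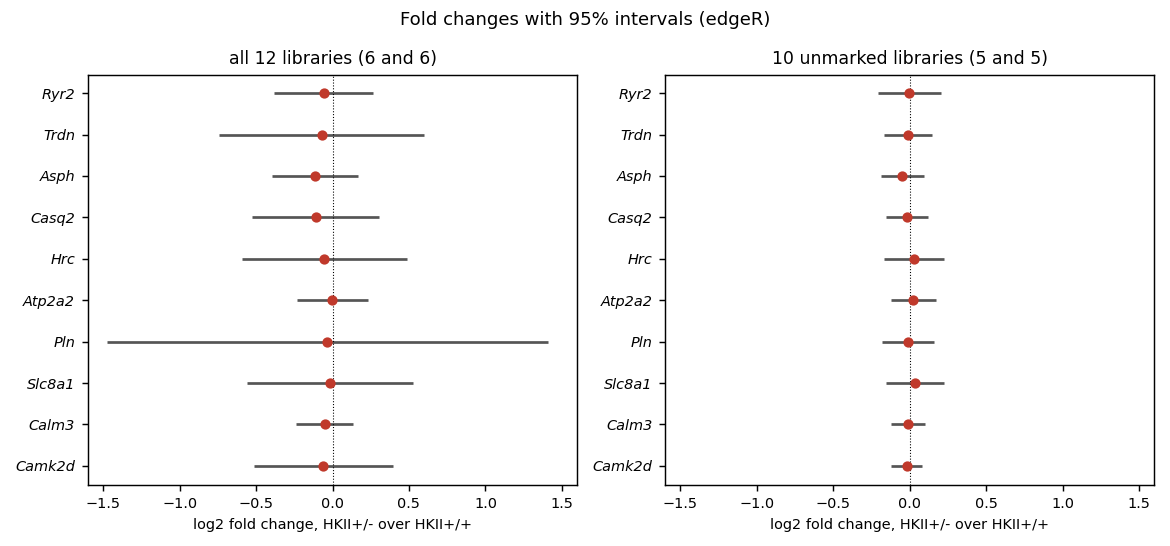
Log2 fold changes of the 10 genes, HKII+/- over HKII+/+, from edgeR, with 95% intervals as bars, for all 12 libraries on the left and the 10 unmarked libraries on the right. Every interval spans 0, and that of Pln is -1.47 to 1.41 with 12 libraries and -0.18 to 0.16 with 10.

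The largest differences in the set lay within each genotype label, between the marked library and the unmarked ones. Pln measured 149 CPM, from 3501 reads, in the library labelled HKII+/- replicate 11, against a mean of 5248 CPM in the 5 unmarked HKII+/- libraries, which is 2.84% of that mean or 35.2-fold lower. In HKII+/+ replicate 13 it measured 540.2 CPM, from 8237 reads, against 5292.5 CPM in the unmarked HKII+/+ libraries, which is 10.2% or 9.80-fold lower. The low value was thus seen in 1 library of each genotype label. The Hk2 level of the library labelled HKII+/- replicate 11 went against its label. The marking by the submitters may rest on the same expression values, so these contrasts are descriptions and carry no test.

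The other 9 genes were spread between a deficit and an excess in the same libraries, in nearly the same order in both. In the library labelled HKII+/- replicate 11 Trdn was at 25.7% of the unmarked mean of its genotype, Slc8a1 at 36.4%, Casq2 at 43.8% and Camk2d at 44.1%. Ryr2 and Asph were each at 63.6%, Calm3 was at 87.2% and Atp2a2 at 90.4%. In HKII+/+ replicate 13 the deficits were smaller, with Trdn at 46.3%, Slc8a1 at 56.1%, Camk2d at 58.8%, Casq2 at 79.7%, Ryr2 at 85.5% and Asph at 88.8%. Atp2a2 (101%) and Calm3 (104%) there stood within the range of the unmarked HKII+/+ libraries. Hrc went the other way in both, at 2095 CPM or 178% of the unmarked mean in the library labelled HKII+/- replicate 11 and at 2510.2 CPM or 217% in HKII+/+ replicate 13.

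Many genes outside the set differed as much. Past 2-fold lower than the unmarked mean were 5 of the 10 genes in the library labelled HKII+/- replicate 11, where 28.5% of all genes tested were, and 2 of 10 in HKII+/+ replicate 13, where 23.4% were. Past 2-fold higher were 0 of 10 in the library labelled HKII+/- replicate 11 (21.9% of all genes) and 1 of 10, Hrc, in HKII+/+ replicate 13 (14.2%). Lower by this measure in both marked libraries were 2 of 10, Pln and Trdn (19.3% of all genes), and higher in both were 0 of 10 (12.8%). For Pln alone the position among all genes was extreme. Of 14107 genes, 40 had a lower log2 ratio in the library labelled HKII+/- replicate 11 and 160 had a lower one in HKII+/+ replicate 13.

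The deviations of the marked libraries moved with the GC content of the transcripts. Across 13977 genes with a GC value, the Spearman correlation between GC content and the deviation from the unmarked libraries of the same genotype was 0.633 in the library labelled HKII+/- replicate 11 and 0.659 in HKII+/+ replicate 13, against -0.385 to 0.248 when each unmarked library was set against the others of its genotype. Among the 10 genes of the set it was 0.806 in the library labelled HKII+/- replicate 11 and 0.855 in HKII+/+ replicate 13, against -0.697 to 0.527 in the unmarked libraries. These are correlations across genes of 1 library, which are not independent replicates. The lowest GC decile of all genes had a median log2 deviation of -2.1 in the library labelled HKII+/- replicate 11 and -1.7 in HKII+/+ replicate 13, while the highest decile had 1.29 in the library labelled HKII+/- replicate 11 and 0.974 in HKII+/+ replicate 13. Trdn (36.8% GC in its principal transcript) and Pln (38.6%) lie in the lowest decile, and Hrc (53.3%) and Calm3 (58.3%) are the genes of the set with the highest GC content.

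Not every gene lay on that trend. Pln, with log2 deviations of -5.14 in the library labelled HKII+/- replicate 11 and -3.29 in HKII+/+ replicate 13, was far below its decile: 24 of the 1398 genes of that decile were lower in the library labelled HKII+/- replicate 11 and 75 in HKII+/+ replicate 13. Trdn, of lower GC content still, had -1.96 in the library labelled HKII+/- replicate 11 and -1.10 in HKII+/+ replicate 13, and 757 and 1008 genes of the same decile were lower than it in these libraries. Calm3 lay below the medians of its decile, at -0.20 against 0.882 in the library labelled HKII+/- replicate 11 and at 0.06 against 0.676 in HKII+/+ replicate 13. The part of base composition, and of the marker levels given above for the marked libraries, in the low Pln counts was not tested.

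**Figure D3:**
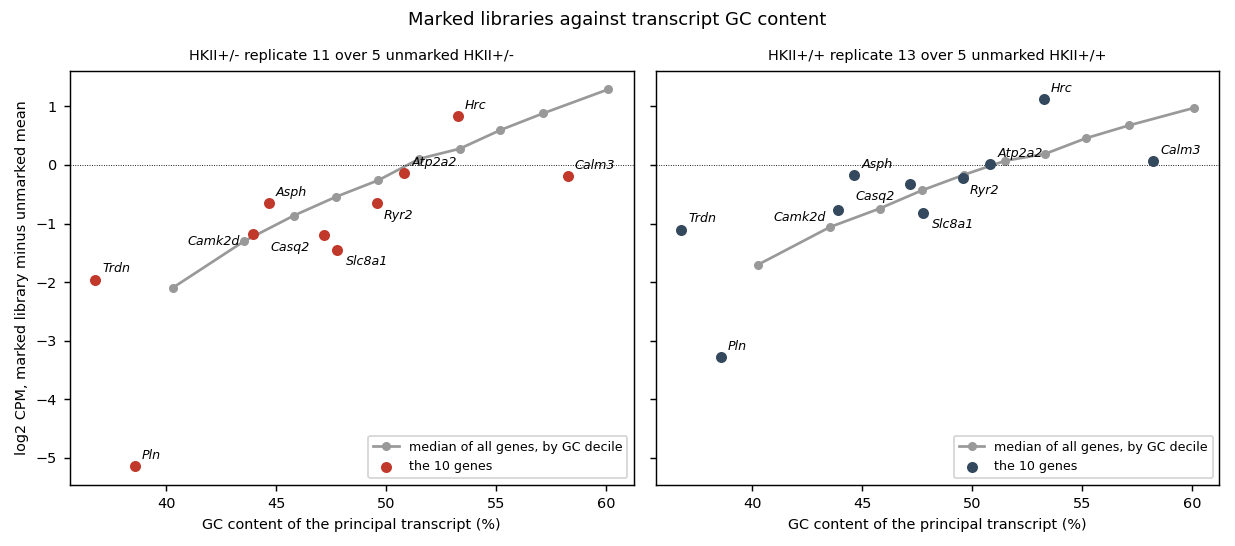
Deviation of each marked library from the mean of the 5 unmarked libraries of its genotype, in log2 CPM, against the GC content of the principal transcript in percent. Coloured points are the 10 genes and the grey line joins the medians of all genes by GC decile. The library labelled HKII+/- replicate 11 is on the left and HKII+/+ replicate 13 on the right. Pln lies far below the line in both, at -5.14 on the left and -3.29 on the right, and Hrc lies above it.

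Ratios of the genes within a library do not depend on the scaling between libraries, and 7 were compared between the genotypes by exact two-sided permutation tests. The balance of phospholamban to its pump, Pln over Atp2a2 counts, was 0.259, 0.274, 0.278, 0.271 and 0.268 in HKII+/- replicates 12, 16, 19, 20 and 22, against 0.265, 0.243, 0.275, 0.302 and 0.299 in HKII+/+ replicates 14, 15, 17, 18 and 21. The mean ratio was 0.270 ± 0.00707 in HKII+/- hearts, against 0.277 ± 0.0246 in HKII+/+ hearts (n = 5 each, ± SD), and all HKII+/- ratios lay inside the HKII+/+ range. The exact permutation p was 0.603 before and 1 after adjustment over the 7 ratios, where 252 splits allow no p below 0.00794. The same ratio was 0.00847 in the library labelled HKII+/- replicate 11 and 0.0279 in HKII+/+ replicate 13.

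None of the other 6 ratios passed. In the unmarked libraries Slc8a1 over Atp2a2, extrusion against reuptake, averaged 0.0250 ± 0.00109 in HKII+/- hearts, against 0.0248 ± 0.00281 in HKII+/+ hearts (n = 5 each, ± SD). Hrc over Atp2a2 averaged 0.0605 ± 0.00554 in HKII+/- hearts, against 0.0605 ± 0.00416 in HKII+/+ hearts. Against the release channel, Casq2 over Ryr2 averaged 0.402 ± 0.0405 in HKII+/- hearts and 0.409 ± 0.0446 in HKII+/+ hearts. Trdn over Ryr2 averaged 0.0837 ± 0.00480 in HKII+/- hearts and 0.0850 ± 0.0114 in HKII+/+ hearts. Asph over Ryr2 averaged 0.100 ± 0.00671 in HKII+/- hearts and 0.104 ± 0.0106 in HKII+/+ hearts. Camk2d over Ryr2 averaged 0.0797 ± 0.00497 in HKII+/- hearts and 0.0817 ± 0.0108 in HKII+/+ hearts. All of these differences were smaller than the SD of either genotype, and every adjusted exact permutation p was 1 with 10 libraries and 0.872 with 12, where 924 splits allow no p below 0.00216. In the marked libraries Hrc over Atp2a2 was 0.119 in the library labelled HKII+/- replicate 11 and 0.130 in HKII+/+ replicate 13. Asph over Ryr2 was 0.100 in the library labelled HKII+/- replicate 11 and 0.107 in HKII+/+ replicate 13, each inside the range of the unmarked libraries of its genotype.

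**Figure D4:**
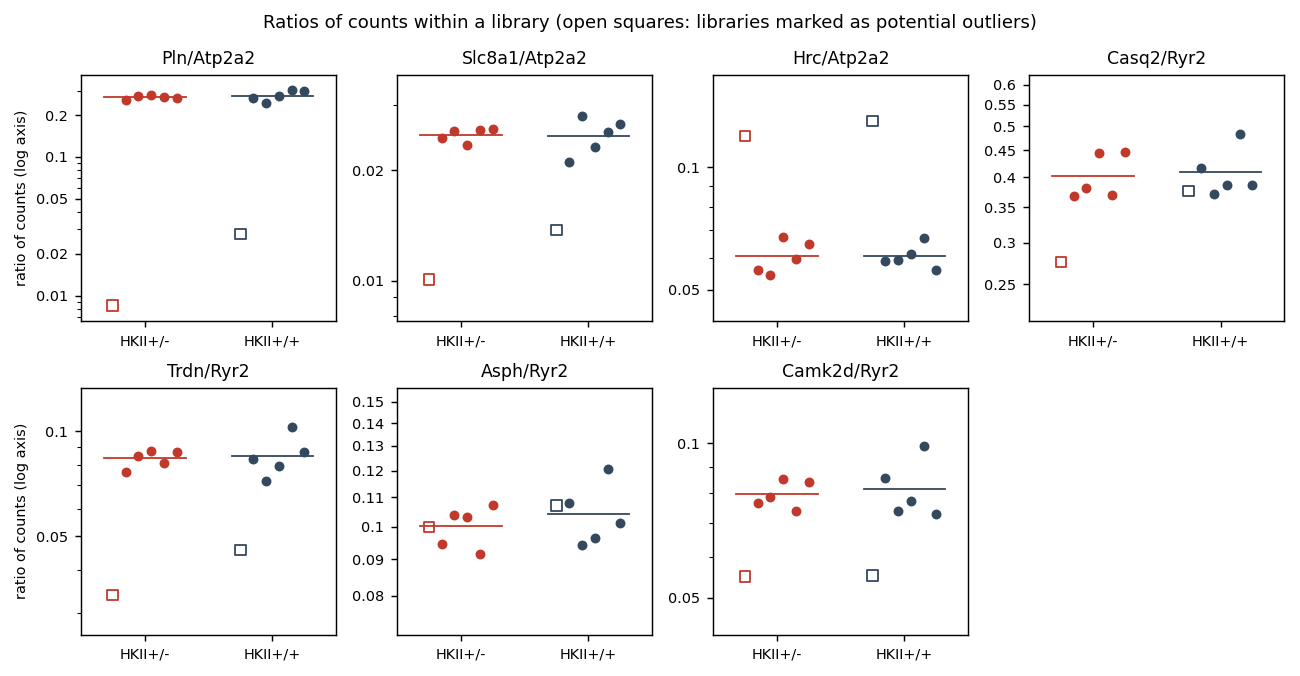
The 7 ratios of counts within a library, on a log axis, with filled circles for the unmarked libraries, lines for the mean of each genotype and open squares for the libraries marked as potential outliers. The genotypes overlap in every panel, and Pln over Atp2a2 is 0.00847 in the library labelled HKII+/- replicate 11 and 0.0279 in HKII+/+ replicate 13, against 0.243 to 0.302 in the unmarked ones.

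Set per kilobase of annotated exon, so that genes can be compared with each other, the reuptake genes stood at the top of the set. In the unmarked libraries Atp2a2 had 3197 ± 191 CPM per kb in HKII+/- hearts, against 3145 ± 104 CPM per kb in HKII+/+ hearts (n = 5 each, ± SD), rank 6 of 13977 tested genes with a length. Pln had 1902 ± 130 CPM per kb in HKII+/- hearts and 1918 ± 174 CPM per kb in HKII+/+ hearts, rank 10. Opposite-strand exons overlap 64.7% of the Pln exon bases and 1.36% of those of Atp2a2. Neither this level nor the Pln over Atp2a2 ratio allows for any reads lost there. The luminal proteins came next. Hrc had 459 ± 64.8 CPM per kb in HKII+/- hearts and 450.5 ± 22.6 CPM per kb in HKII+/+ hearts, and Casq2 had 379.6 ± 22.4 CPM per kb in HKII+/- hearts and 384 ± 23.6 CPM per kb in HKII+/+ hearts. Ryr2 had 90.1 ± 5.06 CPM per kb in HKII+/- hearts and 90.3 ± 12.3 CPM per kb in HKII+/+ hearts. Calm3, with 85.9 ± 5.30 CPM per kb in HKII+/- hearts and 86.4 ± 2.91 CPM per kb in HKII+/+ hearts, did not differ in level from Ryr2 beyond their spread by this length. Slc8a1 had 25.8 ± 2.09 CPM per kb in HKII+/- hearts and 25.2 ± 2.92 CPM per kb in HKII+/+ hearts, and Trdn had 23.2 ± 0.825 CPM per kb in HKII+/- hearts and 23.4 ± 2.57 CPM per kb in HKII+/+ hearts. The ranges of Slc8a1 and Trdn did not meet in HKII+/- hearts (24.2 to 29.4 and 22.25 to 24.05 CPM per kb) but overlapped in HKII+/+ hearts (21.2 to 28.4 and 20.8 to 27.6 CPM per kb). Asph and Camk2d were lowest, at 16.1 and 9.16 CPM per kb in HKII+/- hearts and at 16.7 and 9.31 CPM per kb in HKII+/+ hearts. The length matters for this order. With the principal transcript in place of all annotated exon bases, the level of Slc8a1 was 153 CPM per kb in HKII+/- hearts and 149 CPM per kb in HKII+/+ hearts. That was close to Ryr2, at 154 CPM per kb in HKII+/- hearts and 155 CPM per kb in HKII+/+ hearts, and far above Trdn, at 48.0 CPM per kb in HKII+/- hearts and 48.5 CPM per kb in HKII+/+ hearts. Calm3 was then below Ryr2 beyond their spread, at 90.85 ± 5.60 CPM per kb in HKII+/- hearts and 91.4 ± 3.08 CPM per kb in HKII+/+ hearts. Camk2d had 37.3 CPM per kb in HKII+/- hearts and 37.9 CPM per kb in HKII+/+ hearts by this length.

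For the pump, the channel, the exchanger, calsequestrin and the kinase, the counts per gene show which family member had the most reads. In the unmarked libraries Atp2a2 held 99.8% of the counts of the SERCA family in both genotypes, Ryr2 held 99.7% of the ryanodine receptors and Slc8a1 held 99.5% of the exchangers. Of calsequestrin counts, Casq2 held 98.96% in HKII+/- hearts and 98.95% in HKII+/+ hearts. These are shares of reads, not corrected for length. The kinase was shared more evenly. Camk2d held 55.4% ± 1.34 of CaMKII counts in HKII+/- hearts, against 55.9% ± 2.67 in HKII+/+ hearts (n = 5 each, ± SD), followed by Camk2g, Camk2a and Camk2b. It held 45.1% in the library labelled HKII+/- replicate 11 and 45.6% in HKII+/+ replicate 13. This order depended on length. Per kb of annotated exon, Camk2g, Camk2a and Camk2d had 11.6, 9.66 and 9.16 CPM per kb in HKII+/- hearts. They had 11.7, 9.72 and 9.31 CPM per kb in HKII+/+ hearts. With principal transcript lengths the values were 20, 14.5 and 37.3 CPM per kb in HKII+/- hearts. In HKII+/+ hearts they were 20.3, 14.6 and 37.9 CPM per kb by that length.

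Calm2 had 9.995 CPM in the library labelled HKII+/- replicate 11 and 20.9 CPM in HKII+/+ replicate 13, against 94.1 to 109 CPM in the unmarked libraries. Its fitted log2 fold change was 0.02 (SE 0.06) with 10 libraries and -0.01 (SE 0.49) with 12. The GC content of the principal transcripts is 58.3% for Calm3 and 42.7% for Calm2, and its part in the values of the marked libraries was not tested.

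**Figure D5:**
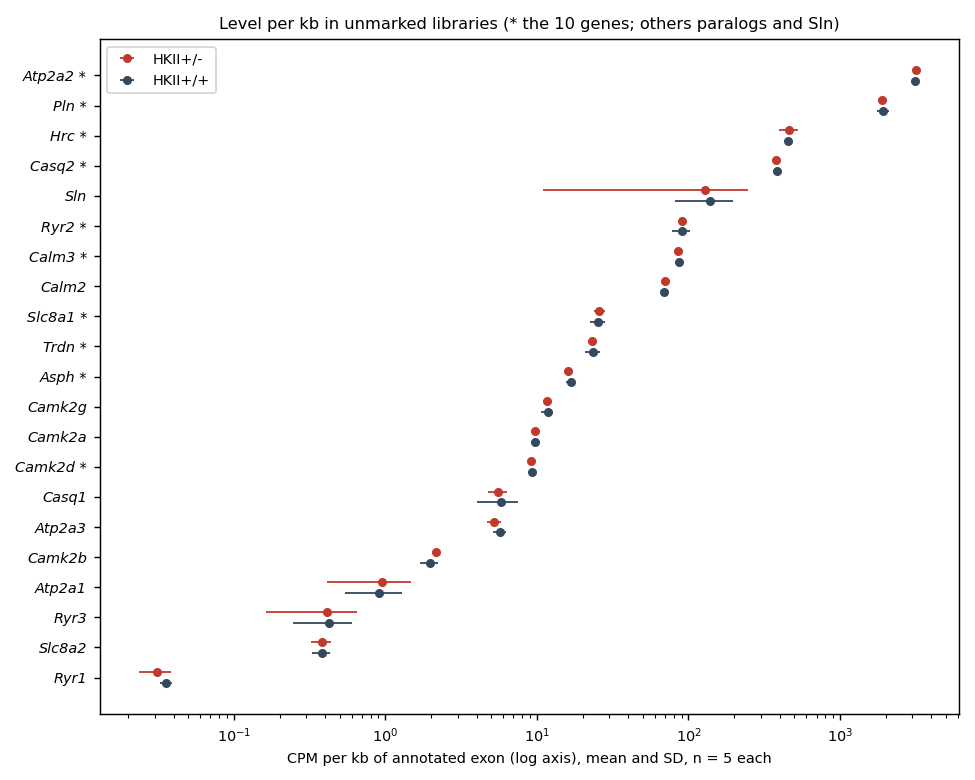
Level of the 10 genes (asterisks), paralogs of them and Sln in the unmarked libraries, in CPM per kb of annotated exon on a log axis. Points are means and bars SDs of 5 libraries of each genotype, HKII+/- above HKII+/+. Atp2a2 and Pln lead at 3197 and 1902 CPM per kb in HKII+/- hearts, and Sln has the widest bar in HKII+/- hearts, 129 ± 118 CPM per kb in HKII+/- hearts and 139 ± 57.8 CPM per kb in HKII+/+ hearts.

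Among the 10 unmarked libraries the highest value of each gene of the set was between 1.10 (Camk2d) and 1.39 times (Slc8a1) the lowest. HKII+/+ replicate 21 was the highest for 6 genes (Ryr2, Trdn, Asph, Casq2, Pln and Camk2d) and HKII+/- replicate 22 for the other 4 (Hrc, Atp2a2, Slc8a1 and Calm3). The mean of the 10 genes, on a log2 scale centred over these libraries, was 0.10 in HKII+/- replicate 22 and 0.11 in HKII+/+ replicate 21, and it was lowest in HKII+/+ replicate 14, at -0.11. Within the set Casq2 followed this mean most closely, with a root mean square difference of 0.0243 log2 units over 10 libraries, and Ryr2 least, with 0.125. Each gene of the set is part of the mean, so its difference cannot be set beside that of a gene outside the set. Outside the calcium lists the tested genes with the smallest difference from the mean, of 13030 that varied at least as much, were Vps8 (0.0268), Dcaf12 (0.0283), Srl (0.0292), Fbxo3 (0.0298) and Ftsj3 (0.0312). Srl encodes sarcalumenin, a calcium-binding protein of the lumen of the sarcoplasmic reticulum.

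The rest of the calcium pathway was read from 10 further lists of 90 genes, of which 85 were tested. None of the 85 passed in edgeR in either direction, with 12 libraries (0% of all genes) or with 10 (0.00707%). In either fit 0 had an unadjusted p below 0.05, against 0.262% of all genes with 12 libraries and 2.8% with 10. With 12 libraries 43 had a fold change below 0 and 42 above it (median log2 fold change -0.001), where 50.5% of all genes lay below 0. With 10 libraries 48 lay below 0 and 37 above it (median -0.01), where 52.7% of all genes lay below 0. The genes named from each list are the ones with the smallest p with 12 libraries, and none of them passed.

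Among the other release channels, the IP3 receptors Itpr3 and Itpr1 did not pass. The log2 fold change of Itpr3 was 0.19 (SE 0.30) with 12 libraries and -0.06 with 10, and that of Itpr1 was 0.06 (SE 0.13) with 12 and 0.01 with 10. Itpr3 measured 85.9 CPM in the library labelled HKII+/- replicate 11 and 51.7 CPM in HKII+/+ replicate 13, against medians of 29.9 CPM over the 6 HKII+/- and 31.3 CPM over the 6 HKII+/+ libraries. Of the 11 partners of the release unit, Tmem38b, a channel that balances charge across the membrane of the store, was at -0.11 (SE 0.09) with 12 libraries and -0.06 with 10. Fkbp1b, which encodes calstabin-2 of the ryanodine receptor complex, was at 0.41 (SE 0.46) and -0.24, at levels of at most 2.89 CPM.

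Of the pump paralogs and small inhibitors, Atp2a1 (the fast skeletal muscle pump) was at 0.23 (SE 0.41) with 12 libraries and 0.04 with 10, and Mrln (myoregulin) at -0.22 (SE 0.42) and -0.61 (SE 0.36), from at most 1.11 CPM. Sln, which encodes sarcolipin, an inhibitor of SERCA found mainly in mouse atria, ranged from 0.0782 to 326.5 CPM in HKII+/- libraries (median 256.5) and from 71.7 to 272 CPM in HKII+/+ libraries (median 166). Its log2 fold change had a standard error of 1.05 in both fits, at 0.18 with 12 libraries and -0.11 with 10. Strit1, Arln and Erln were not analysed here. In the extrusion list, Atp2b2, a plasma membrane calcium pump, was at 0.55 (SE 0.44) with 12 libraries and 0.19 with 10, and the exchanger Slc8a2 at 0.08 (SE 0.21) and 0.02.

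In the calcium-sensing list, Camk2b was at 0.09 (SE 0.11) with 12 libraries and 0.14 (SE 0.08) with 10, and Camk2g at -0.09 (SE 0.11) and -0.02. Of the 10 genes of the L-type channel and its dyad, Bin1, which shapes the transverse tubules, was at 0.21 (SE 0.45) with 12 libraries and -0.06 with 10. Cacna1c, the pore of the L-type channel, was at -0.06 (SE 0.14) and 0.04, with a median of 481 CPM in HKII+/- and 509 CPM in HKII+/+ libraries. Of the 18 genes of beta-adrenergic and phosphatase control, Ppp1r1a, an inhibitor of protein phosphatase 1, was at 0.28 (SE 0.26) and 0.01. Adrb1, the beta-1 receptor, was at 0.08 (SE 0.14) with 12 libraries and 0.16 (SE 0.11) with 10.

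Among calcineurin genes, Nfatc4, a transcription factor that calcineurin activates, was at 0.15 (SE 0.24) with 12 libraries and 0.10 with 10, and Myoz2, a calcineurin-binding protein of the Z disc, at -0.12 (SE 0.26) and -0.03. Of the 8 mitochondrial calcium genes, Mcub, a subunit that lowers uptake by the uniporter, was at -0.08 (SE 0.26) and -0.15 (SE 0.17). Micu2, a gatekeeper of the uniporter, was at -0.03 (SE 0.11) and -0.03. Of store-operated entry, the sensor Stim2 was at 0.15 (SE 0.12) with 12 libraries and 0.07 with 10, and the channel Orai1 at 0.13 (SE 0.13) and 0.12 (SE 0.10).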

How the data were processed

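Per the labels' protocols, poly(A) RNA of each heart was read on an Illumina sequencer, in single reads of 100 bases. Per the submitters' processing notes, the tools were STAR (2.4.0) and featureCounts (1.4.4), with the builds mm10 and GRCm38. The deposited tables hold raw counts for each gene symbol, whole numbers that the authors had not normalised. The strand setting and annotation release were not given in the sources used here.

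Libraries were treated as separate animals by their separate titles, and otherwise the p-values measure only the spread between these samples, which may be technical. Replicates did not repeat each other (lowest chi-square per degree of freedom 7.03 over 30 pairs). The total counts of 17263209 to 51556592 set the precision of low genes. The main test was edgeR 4.0.16 (TMM, filterByExpr with a minimum count of 10, quasi-likelihood test, Benjamini-Hochberg adjustment over all genes at 0.05) in R 4.3.3, over 12 libraries and over the 10 unmarked ones, first tested on simulated data. Intervals are 95% from the fitted standard error. Alternatives were other scalings, no filter, DESeq2 1.42.0, limma 3.58.1 voom with sample quality weights, an atrial marker covariate, leaving out libraries, and 2 chosen after seeing the data, removal of a GC trend and lengths of principal transcripts. Ratios were tested by exact two-sided permutation. Positions, lengths, GC content (99.1% of tested genes) and sequences came from GENCODE vM21 (GRCm38), with 22707 symbols matched directly, 933 through an older symbol, 60 to several genes and 361 to none. The file symbols 2310015B20Rik and Ccdc109b were read as Mrln and Mcub.

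Named genes were the 10 genes of the set, their paralogs, the 2 genes of each calcium list with the smallest p, and the 5 genes nearest to the mean profile of the set. All 10 genes of the set and 7 ratios are reported, and 1 paralog, with a further ratio that was planned with it, is not reported here. The genes and lists were chosen with earlier results of these data known.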

Additional observations from a re-analysis of the deposited data

Results flagged for a closer look

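In 11 of 20 groups of 6 libraries (10 genes in each genotype) and in 6 of 14 groups of ratios, 1 library lay further from the other 5 than Dixon's critical value of 0.625 for the gap over the range. Chance flags about 1 in 20 groups, but the same gap was found for 54.5% of all genes tested in HKII+/- libraries, where 8 of the 10 genes had it, and for 46.6% in HKII+/+ libraries, where 3 of 10 did. All of these groups share the same 12 libraries. For each gene and ratio of the set past the critical value, the library was labelled HKII+/- replicate 11 or HKII+/+ replicate 13, the libraries that the submitters had marked. In the library labelled HKII+/- replicate 11 the values past it were low for Ryr2 (1649 CPM), Trdn (55.8 CPM), Asph (164.8 CPM), Casq2 (454.6 CPM), Pln (148.9 CPM), Slc8a1 (176.8 CPM) and Camk2d (90.8 CPM), and high for Hrc (2095 CPM). Atp2a2 and Calm3 were also lowest of their genotype in that library, by gaps under the critical value. In HKII+/+ replicate 13 they were low for Pln (540.2 CPM) and Camk2d (123 CPM) and high for Hrc (2510 CPM), while Trdn, Slc8a1, Casq2 and Asph were lowest of their genotype there by gaps under it.

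Among the ratios, Pln over Atp2a2 was lowest at 0.00847 in the library labelled HKII+/- replicate 11 and at 0.0279 in HKII+/+ replicate 13. Slc8a1 over Atp2a2 (0.0101) and Trdn over Ryr2 (0.0338) were past the critical value in the library labelled HKII+/- replicate 11. HKII+/+ replicate 13 was lowest of its genotype for both as well, at 0.0138 and 0.0455, by gaps under that value. Hrc over Atp2a2 was highest at 0.119 in the library labelled HKII+/- replicate 11 and at 0.130 in HKII+/+ replicate 13.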

How the results depend on the processing

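No gene of the set was called under any alternative, but the sign and size of fold changes and ratios, the count of all genes called and, with principal transcript lengths, the levels per kb changed. Genes called numbered 0 with 12 libraries, but 2 with sample quality weights and 1 without both marked libraries, and with the 10 unmarked libraries 1, but 3 with DESeq2. With 12 libraries Atp2a2 turned to 0.0052 with library totals, 0.0019 with sarcomere marker scaling and 0.014 with the GC trend removed. Sample quality weights turned Ryr2 (0.026), Trdn (0.030) and Slc8a1 (0.039). Leaving out both marked libraries turned Hrc (0.029), Atp2a2 (0.024), Slc8a1 (0.035) and the Slc8a1 over Atp2a2 ratio (log2 difference 0.016). With 10 libraries sarcomere marker scaling turned Hrc (-0.0064) and Atp2a2 (-7.476e-05), and the atrial covariate turned Ryr2 (0.027), Hrc (-0.057) and Atp2a2 (-0.0065). The cause was not tested. Leaving out 1 library at a time moved the 12-library log2 fold changes over -0.10 to 0.034 (Ryr2), -0.20 to 0.12 (Trdn), -0.17 to 0.035 (Casq2), -0.23 to 0.22 (Hrc), -0.032 to 0.022 (Atp2a2), -0.26 to 0.23 (Pln), -0.12 to 0.15 (Slc8a1) and -0.15 to 0.084 (Camk2d). Except for the lower ends of Ryr2, Casq2 and Atp2a2, these ends were reached without the library labelled HKII+/- replicate 11 or without HKII+/+ replicate 13. With the 10 unmarked libraries the ranges were -0.065 to 0.053 (Ryr2), -0.056 to 0.056 (Trdn), -0.051 to 0.019 (Casq2), -0.035 to 0.073 (Hrc), -0.010 to 0.041 (Atp2a2), -0.059 to 0.031 (Pln), -0.025 to 0.077 (Slc8a1) and -0.033 to 0.022 (Calm3), and the genes called ranged from 0 to 2. The log2 ratios ranged over -0.86 to 0.52 (Pln over Atp2a2), -0.20 to 0.16 (Slc8a1 over Atp2a2), -0.19 to 0.16 (Hrc over Atp2a2), -0.23 to 0.13 (Trdn over Ryr2) and -0.12 to 0.064 (Camk2d over Ryr2). No scaling moved the median of all genes by over 0.1. No paired analysis was possible because no replicate number is shared by both genotypes. Depth did not limit the set, whose lowest gene had 1311 reads in its lowest library, but Ryr1 (13 to 56 reads) was thinly covered. Sln ranged from 4 to 11027 reads between libraries. Scaled to a common library size it still ranged from 0.0782 to 326.5 CPM, and the cause of that spread was not tested.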
